A study of Mus musculus with 3 samples.

Results

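Tspo, its ligand Dbi, the channel genes Vdac1, Vdac2 and Vdac3, and the binding protein gene Acbd3 were followed through CD133+ cells of mouse bone marrow. These 6 genes, of 27998 in the count matrices, were chosen by name as the translocator protein of the outer mitochondrial membrane and the proteins known to bind it or to sit beside it. The study asked what differs between such cells of young and old mice, and sequenced cells sorted by FACS as 3 droplet libraries from C57BL/6 mice, labelled control, young and old. The control and young libraries came from mice of 3 months. The old library came from mice of 27 months by its label and of 18.5 months by the description of the series. Each library pooled 3 mice, and no treatment, transgene or sex was given for any of them. Nothing in the labels tells the control library from the young one, which has the same strain and age. By its number of cells, the control library is the set the study used to describe the CD133+ cells and their clusters. The study reported the young and old libraries apart from that set, as a comparison of ages. Ratios with control therefore also compare separate parts of the study. Whether the libraries were prepared together is not given. With 1 library per group, age, mice and library cannot be told apart, no test was possible, and the intervals below cover counting error only.

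TSPO is a small protein of the outer mitochondrial membrane that binds cholesterol and porphyrins, and it is best known from steroid-forming tissues and from activated myeloid cells, where it serves as an imaging target of inflammation. DBI, also called acyl-CoA binding protein, carries long-chain acyl-CoA esters and binds TSPO as a ligand. ACBD3, a Golgi protein with the same acyl-CoA binding domain, was found as a partner of TSPO and of protein kinase A in steroidogenesis. The VDAC proteins form the pores through which metabolites cross the outer membrane.

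The cells were, by their markers, mostly neutrophil precursors. In the kept cells the sum of Ltf, Camp, Ngp and Lcn2 lay between 106420 and 122589 UMIs per 1000000 UMIs (CPM), where a UMI stands for 1 captured RNA molecule. The series calls them endothelial-like. The study placed them near endothelial cells by an inferred ordering of RNA profiles. It also reported uptake of low-density lipoprotein, tube-like structures and donor-derived endothelial cells. It described the cadherin of endothelial junctions, encoded by Cdh5, as barely expressed in them. Here Cdh5 had 1, 6 and 0 UMIs in the control, young and old libraries, and the 7 endothelial markers together reached at most 8.96 CPM. Of the 10869 control, 8362 young and 10597 old cells, 9674, 6575 and 9576 were kept, with 95080108, 67269354 and 118424988 UMIs and medians of 9593.5, 10318 and 12698 UMIs per cell. Cells carrying markers of another blood cell type were set aside, which took 10.9% of the young cells that passed the filters against 1.08% in each of the other libraries. Between 243 and 284 barcodes per library also occurred in another library.

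Cells were placed along neutrophil maturation by the granule gene Mpo, used early, and by Retnlg and Mmp8, used late. Mpo-high cells had at least 50 Mpo UMIs per 10000 UMIs, Mpo-middle cells 10 to 50 and low-low cells fewer than 10, all with fewer than 5 UMIs of Retnlg and Mmp8. Late cells had fewer than 10 of Mpo and at least 5 of Retnlg and Mmp8. The late band held 12.2% of the kept control cells, 32.4% of the young and 55.7% of the old. Cells high in Mpo and in the late genes at once, 1.28%, 7.16% and 6.54% of the control, young and old cells, counted in the library totals only. In Mpo-high cells, counted without regard to the late genes, the median of Retnlg and Mmp8 was 1.25, 3.33 and 3.51 per 10000 UMIs in the control, young and old libraries, which bears on who enters the late band. Its part in the results was not tested.

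In GRCm38, Tspo lies on chr15:83563592-83574203 (plus strand), with its first bases overlapping Mcat on the other strand. Dbi lies on chr1:120113280-120121078 (minus strand), Vdac1 on chr11:52360860-52389397 (plus), Vdac2 on chr14:21825238-21845879 (plus, overlapping Comtd1 on the other strand), Vdac3 on chr8:22577075-22593813 (minus) and Acbd3 on chr1:180726043-180754204 (plus, overlapping Gm37768). Counts of the overlapping genes were small beside those of the members. Mcat had 4.86, 4.39 and 5.80 CPM in the control, young and old libraries, Comtd1 22.1, 21.6 and 13.2, and Gm37768 at most 1 UMI. The pseudogene Vdac3-ps1 had 1.98, 2.62 and 2.01 CPM, and how reads that match both it and Vdac3 were counted was not checked.

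Vdac1 is a channel gene that hardly differed between the libraries over all kept cells. Its promoter is shown for context from the RefSeq table (GRCm38.p6, 250 bases before to 50 after a start site). The window is the one nearest to the annotated gene start, at chr11:52360601-52360900 (plus strand), in lower case because it held none of the motifs searched on either strand.
Vdac1: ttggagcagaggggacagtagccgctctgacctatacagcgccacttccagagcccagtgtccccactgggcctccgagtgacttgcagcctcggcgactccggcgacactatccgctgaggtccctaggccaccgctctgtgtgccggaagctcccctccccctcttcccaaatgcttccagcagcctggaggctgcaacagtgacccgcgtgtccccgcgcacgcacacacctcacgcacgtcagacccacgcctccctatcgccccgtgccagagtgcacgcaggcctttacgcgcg
Its GC content was 66.0%, against a median of 52.7% over 32851 promoters. The motifs searched were the GC box GGGCGG, found in 35.7% of all promoters, the CCAAT box (37.4%), TATAAA (13.6%), the sterol element TCACNCCAC (1.24%) and the E-box CACGTG (7.15%). A further Vdac1 window, of a downstream start site, held the GC box at bases 4, 72 and 106.

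Tspo was the most abundant of the 6 genes and, over all kept cells, the one with the largest ratio between the old and young libraries, while within the Mpo-high, Mpo-middle and low-low bands of maturation the ratio of Dbi was larger. Its level was 1183 CPM in control (interval 1176 to 1190.0), 767 in young (761 to 774) and 1778 in old cells (1771 to 1786). Old cells thus had 2.32 times the young level, for a log2 ratio of 1.21 (1.20 to 1.23). It ranked 81 from the highest among the 5590 genes that reached 10 CPM in at least 1 of the pair. Control cells, of the same labelled age as the young, lay between them, at 1.54 times the young level, a log2 ratio of 0.62 (0.61 to 0.64). The log2 ratio of old over control was 0.59 (0.58 to 0.60), or 1.503 times, just past the limit of 1.5 times used for counting genes. In UMIs per cell the log2 ratios of control over young and old over control were 0.57 and 0.92.

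Dbi followed the same order of libraries. It had 458 CPM in control (454 to 462), 369 in young (365 to 374) and 729.5 in old cells (725 to 734). The log2 ratio of old over young was 0.98 (0.962 to 1.003), or 1.98 times, rank 127 of 5590. Old over control gave 0.67 (0.66 to 0.69) and control over young 0.31 (0.29 to 0.33). Dbi thus passed 1.5 times against both other libraries in old cells. In cells of 8000 to 12000 UMIs, old over control was 0.26 and did not pass, and with the 4 bands weighted equally in those cells it was 0.64.

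**Figure D1:**
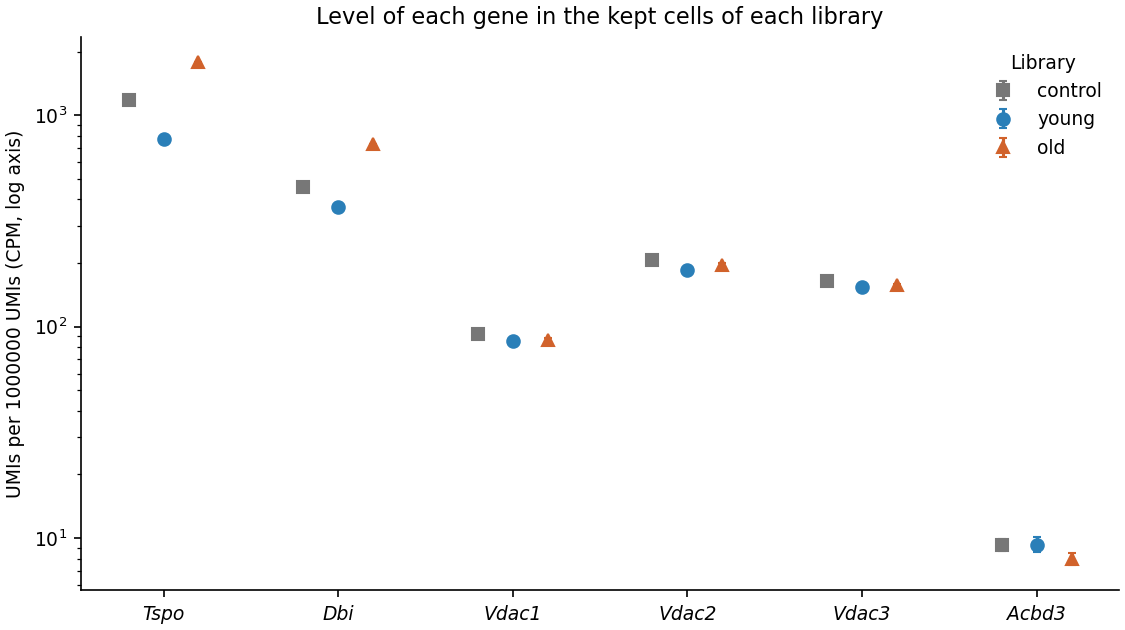
Level of each of the 6 genes in the kept cells of the control, young and old libraries, in UMIs per 1000000 UMIs on a log axis, with exact 95% Poisson intervals that are mostly smaller than the symbols. Tspo and Dbi stand apart between libraries (Tspo 767 in young and 1778 in old), whereas for each Vdac gene the 3 libraries nearly coincide.

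The channel genes differed little over all kept cells. Vdac2, the most abundant, had 208 CPM in control, 186 in young and 196 in old cells. Vdac3 had 164, 154 and 157 CPM, and Vdac1 91.9, 85.5 and 86.9 CPM. The log2 ratios of old over young were 0.08 (0.05 to 0.11) for Vdac2, 0.029 (-0.0058 to 0.064) for Vdac3 and 0.023 (-0.023 to 0.070) for Vdac1, so that the intervals of Vdac1 and Vdac3 span 0. Over 12 alternatives in filters, scaling, depth and bands these ratios varied far more than the intervals. They ran from -0.06 to 0.35 for Vdac2, -0.39 to 0.30 for Vdac3 and -0.24 to 0.30 for Vdac1. Over all kept cells, the log2 ratios of old over control were -0.08, -0.06 and -0.08 for Vdac2, Vdac3 and Vdac1. These signs depend on the makeup by bands and on the scaling: the same ratios were 0.019, 0.13 and 0.087 with the 4 bands weighted equally, and 0.25, 0.27 and 0.25 in UMIs per cell.

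Over all kept cells, the makeup of the channel transcripts was nearly constant between the libraries. Vdac1 made up 19.8% of the Vdac UMIs in control (19.5 to 20.2, exact binomial), 20.1% in young (19.6 to 20.6) and 19.7% in old cells (19.4 to 20.1). Vdac2 made up 44.8%, 43.6% and 44.5%, and Vdac3 35.4%, 36.3% and 35.7%. The order Vdac2, Vdac3, Vdac1 was the same in the 3 libraries. Their summed level was 464, 425 and 441 CPM. Along the bands the makeup moved more. In low-low cells Vdac2 made up 43.9%, 42.6% and 42.6% in control, young and old. In late cells it made up 49.2% (47.2 to 51.2), 45.3% (44.1 to 46.6) and 46.5% (45.9 to 47.2).

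Acbd3, the Golgi partner, was scarce. It had 9.28 CPM in control (8.67 to 9.91), 9.31 in young (8.59 to 10.1) and 7.95 in old cells (7.45 to 8.48). All 3 lie under the minimum of 10 CPM, so 5 of the 6 members entered the counts of genes past 1.5 times. Its log2 ratio of old over young was -0.23 (-0.37 to -0.08) in CPM, and 0.05 when given in UMIs per cell.

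Of the 5 members above the minimum, 2 passed 1.5 times higher in old over young, Tspo and Dbi, and 0 passed lower. Over all 5590 genes of that comparison 5.04% passed higher and 10.2% lower. The study had already reported Tspo as higher in old than in young cells of these libraries, in each of its clusters. By qPCR it also reported Tspo as raised in old mice, in CD133+ and in CD133-negative marrow cells. That Tspo passed was thus known when the members were chosen, and the count is no independent result about the set. In control over young, 1 member passed higher and 0 lower, beside 2.47% and 3.69% of 5552 genes. In old over control, 2 passed higher and 0 lower, beside 5.34% and 8.71% of 5451 genes. The median log2 ratio of the 5 members was 0.08 in old over young, against -0.08 over all genes. Both comparisons with the young library, both with the old and both with the control share that library.

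**Figure D2:**
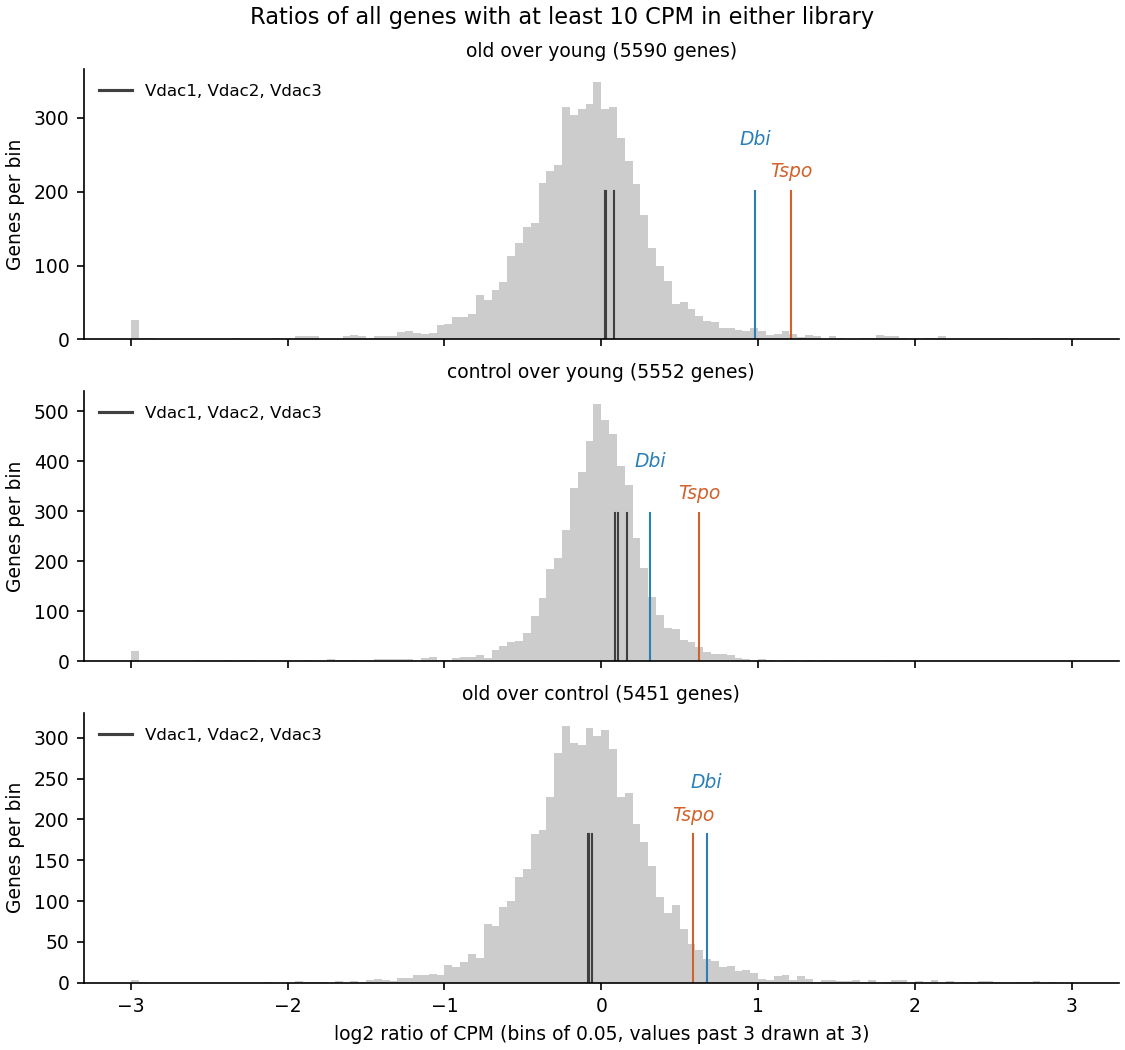
Number of genes per bin of 0.05 of the log2 ratio between libraries, for genes that reached 10 CPM in 1 or both of them. Lines mark Tspo, Dbi and the 3 Vdac genes, and Tspo and Dbi lie in the upper tail in old over young (1.21 and 0.98), while the Vdac genes lie near the centre.

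The difference in Tspo was found throughout maturation. From Mpo-high through Mpo-middle and low-low to late cells, its level was 814, 798, 740 and 764 CPM in the young library and 1613, 1785, 1717 and 1835 CPM in the old. Every band of the old library was above every band of the young one. The log2 ratios of old over young in this order were 0.99 (0.95 to 1.02), 1.16 (1.12 to 1.21), 1.21 (1.19 to 1.24) and 1.26 (1.24 to 1.29). In the control library the levels were 1025, 1127, 1225 and 1282 CPM, between the other two in each band. Control over young gave 0.33 in Mpo-high cells (0.30 to 0.37) and 0.75 in late cells (0.71 to 0.78), a difference between bands larger than the counting intervals. Old over control gave 0.65, 0.66, 0.49 and 0.52 from Mpo-high to late, more than control over young in the Mpo-high and Mpo-middle bands and less in the other bands.

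Dbi was also higher in old cells in each band, but on a steep slope of its own. In the order Mpo-high, Mpo-middle, low-low and late, it had 876, 648, 331 and 231 CPM in control, 707, 510.2, 260.1 and 212 in young, and 1486, 1157, 644 and 478 in old cells. The log2 ratios of old over young were 1.07, 1.18, 1.31 and 1.17, each above the 0.98 found over all kept cells. The old library had more of its cells in the late band, where Dbi was lowest in every library. Control over young was 0.31, 0.34, 0.35 and 0.12. Within 4 finer parts of the late band it was 0.14 (0.045 to 0.24), 0.23 (-0.024 to 0.49), 0.26 (-0.052 to 0.58) and 0.33 (0.046 to 0.61). Each value was above the 0.12 of the whole band, but all 4 intervals also held 0.12.

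**Figure D3:**
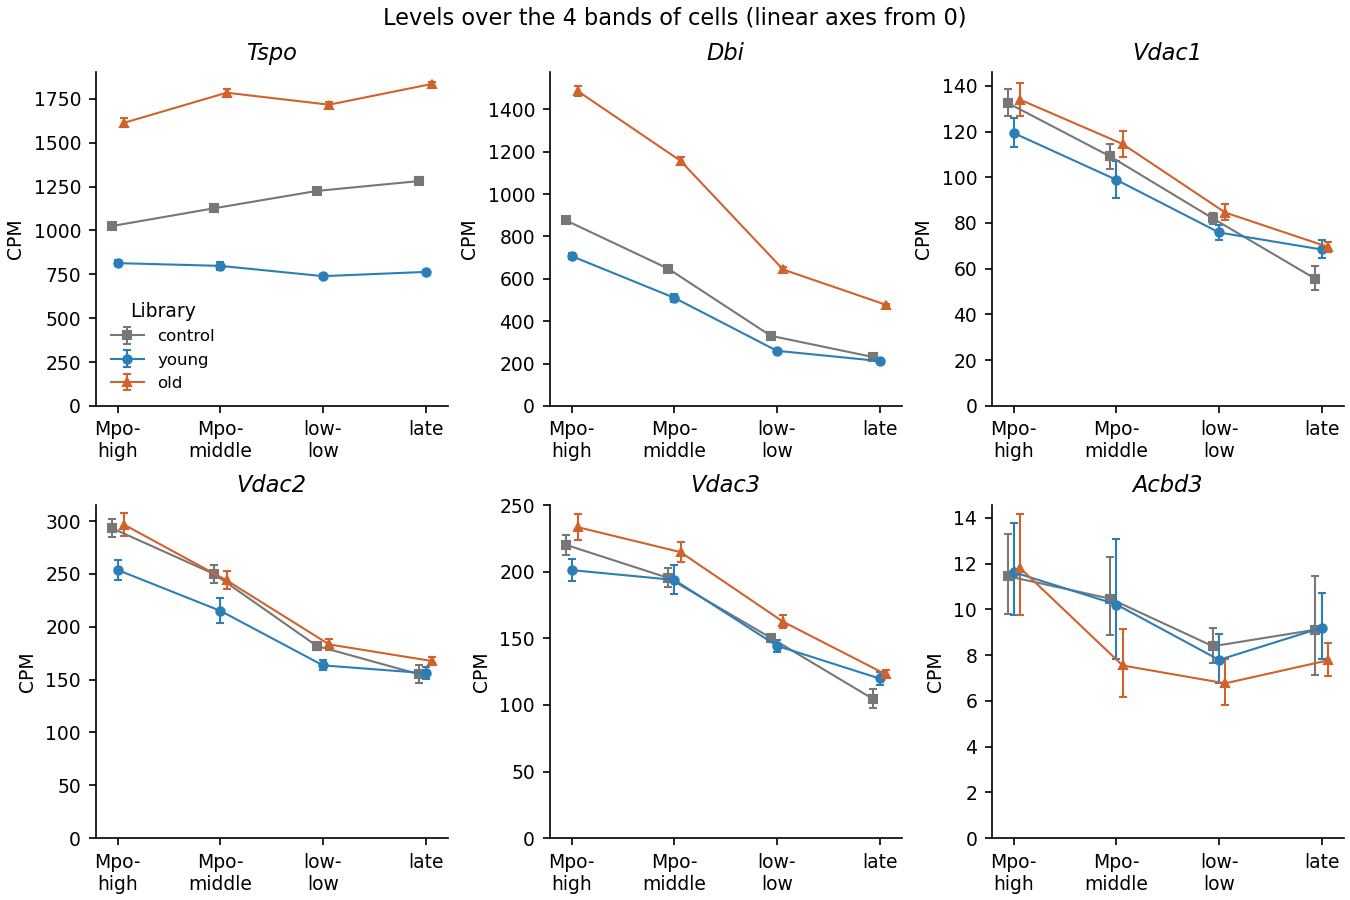
Level of each gene in CPM, on linear axes from 0, over the 4 bands from Mpo-high to late, for the control, young and old libraries, with exact 95% Poisson intervals. Tspo varies less within a library, Dbi and the Vdac genes are lower in late cells (Dbi 1486 to 478 in old), and the old library is highest in each band for Tspo and Dbi.

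Within each library, Dbi and the channel genes were lower in late than in Mpo-high cells. The log2 ratio of late over Mpo-high was -1.93 (-2.00 to -1.86) for Dbi in control, -1.74 in young and -1.64 in old cells. It was -1.25, -0.80 and -0.95 for Vdac1, -0.92, -0.70 and -0.82 for Vdac2, and -1.08, -0.75 and -0.92 for Vdac3. Most genes were lower in this comparison, with medians over all genes of -0.81, -0.67 and -0.71, so of the members only Dbi lay far below them. From the highest ratio, Dbi ranked 5194 of 6260 genes in control, 5567 of 6346 in young and 4989 of 6040 in old cells. Many genes thus fell further than Dbi. Acbd3 had -0.33, -0.34 and -0.60. Members past 1.5 times lower numbered 4 of 6 in control, 4 in young and 5 in old cells, and 0 passed higher. Over all genes, 57.8%, 54.3% and 55.7% passed lower and 12.5%, 8.6% and 10.2% higher, so the counts of lower members are near the background. With the 20 most abundant genes left out of the total, the slope of the channel genes shrank or was lost. In young cells their ratios became -0.0096 for Vdac1, 0.092 for Vdac2 and 0.045 for Vdac3. Dbi stayed lower, at -1.05, -0.95 and -0.94 in control, young and old cells.

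Tspo did not share that slope. Its log2 ratio of late over Mpo-high was 0.32 (0.29 to 0.36) in control, -0.09 (-0.13 to -0.05) in young and 0.19 (0.16 to 0.21) in old cells. The sign in the young library depends on the band limits and on the scaling, being 0.10 with a limit of 20 for the late genes and 0.70 when the 20 most abundant genes were left out of the total. In UMIs per cell the control and old ratios were -0.55 and -0.23. Late cells had fewer UMIs than Mpo-high cells, with medians of 5886.5 against 12877 in control and 11047 against 15242 in old cells.

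The balance of receptor and ligand transcripts therefore shifted along the bands. In Mpo-high cells there were 1.17 (1.14 to 1.20), 1.15 (1.12 to 1.19) and 1.09 (1.06 to 1.11) Tspo UMIs for each Dbi UMI in control, young and old cells. In late cells there were 5.56 (5.29 to 5.85), 3.60 (3.48 to 3.74) and 3.84 (3.79 to 3.89). This ratio does not depend on the total used for scaling. The libraries were close in Mpo-high cells. Within the late band the order turned with maturity: cells with 5 to 10 late-gene UMIs per 10000 had 4.85 (4.56 to 5.16) Tspo UMIs per Dbi UMI in control, 3.25 (3.12 to 3.38) in young and 3.08 (3.03 to 3.13) in old. Cells with 50 or more had 8.90 (7.69 to 10.3), 6.77 (5.87 to 7.83) and 9.96 (9.48 to 10.5). The values over the whole late band thus also carry its makeup, since 669 of 1176 late control cells, 1459 of 2130 young and 2648 of 5331 old had 5 to 10.

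Over 11 finer bands, Dbi spanned 5.60 times from its highest to its lowest band in control, 5.66 in young and 6.43 in old cells, and its lowest level was in each library in cells with at least 50 Retnlg and Mmp8 UMIs per 10000. In that most mature band Tspo had its highest level, 1500.0 CPM in control, 908 in young and 2314 in old cells. Over the other 10 bands Tspo varied by 1.30, 1.15 and 1.20 times from lowest to highest. The log2 ratio of old over young was above 0 with its whole interval in 11 of 11 bands for both genes, from 0.86 to 1.35 for Tspo and from 0.78 to 1.39 for Dbi. For Tspo the lowest ratio was in the earliest band, with 76 old and 434 young cells. For Dbi the lowest were in the bands with 20 or more late-gene UMIs, 0.78 and 0.79.

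**Figure D4:**
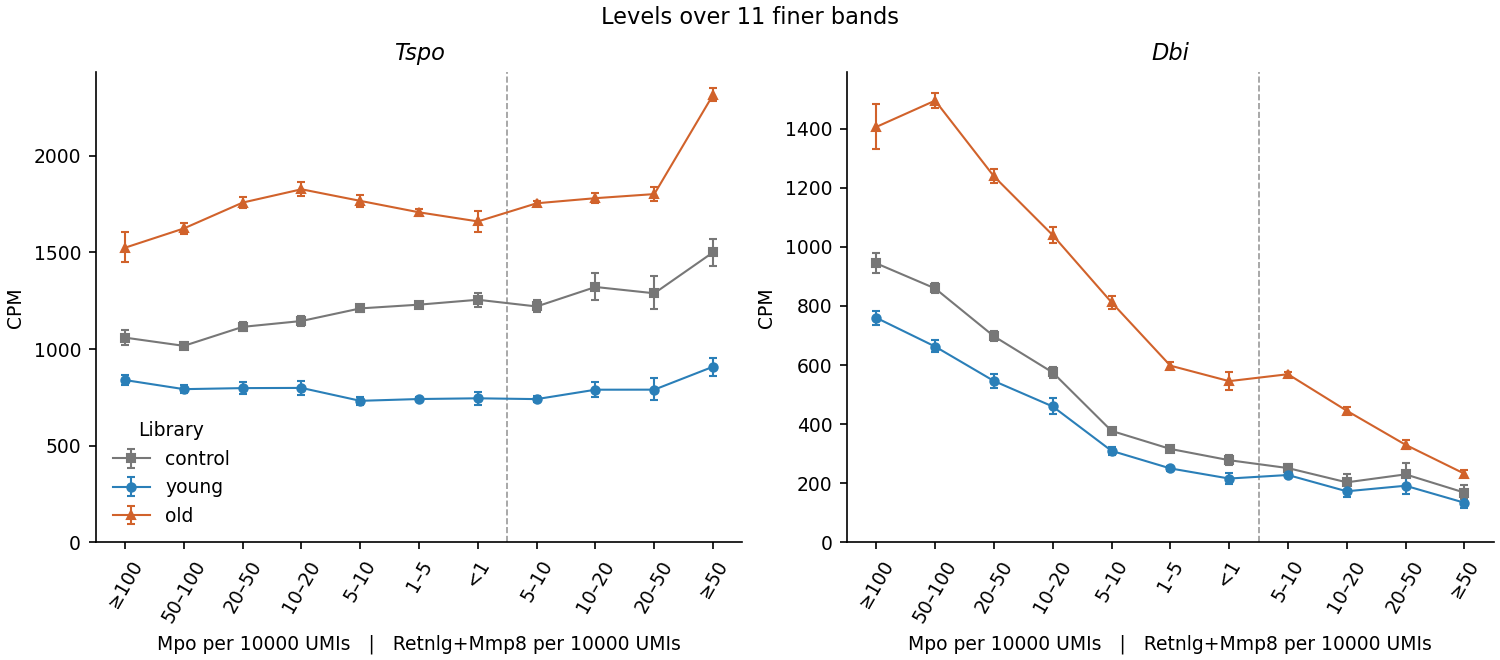
Level of Tspo and Dbi in CPM over 11 finer bands, from high Mpo on the left to high Retnlg and Mmp8 on the right of the dashed line, with exact 95% Poisson intervals. Tspo is highest in the last band in all 3 libraries (2314 in old), where Dbi is lowest, and the old library is above the others in each band.

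The Vdac genes varied between libraries by band as well, at a smaller scale. Vdac1 in old over young gave 0.17 (0.06 to 0.28) in Mpo-high, 0.21 (0.08 to 0.35) in Mpo-middle, 0.16 (0.07 to 0.24) in low-low and 0.024 (-0.068 to 0.12) in late cells. Vdac3 gave 0.21, 0.15, 0.17 and 0.038 in the same order. Over the 11 finer bands its interval lay above 0 in 6 and below 0 in 1. That was the most mature band, at -0.38 (-0.66 to -0.10). In old over control, Vdac1 gave 0.015, 0.070, 0.045 and 0.32, Vdac2 0.016, -0.035, 0.011 and 0.11, and Vdac3 0.084, 0.14, 0.11 and 0.24. In control over young both were lower in late cells, by log2 ratios of -0.30 (-0.46 to -0.14) for Vdac1 and -0.20 (-0.32 to -0.08) for Vdac3. None of these passed 1.5 times.

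**Figure D5:**
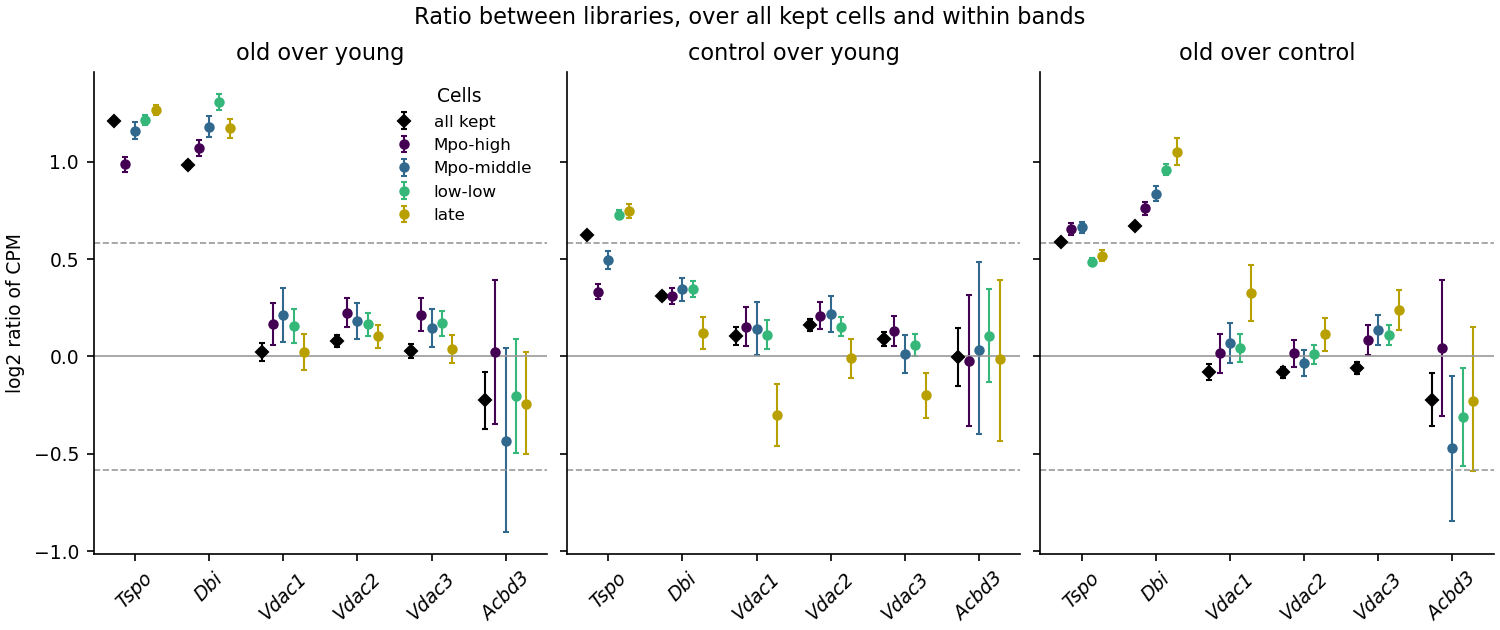
Log2 ratio of CPM between libraries for each gene, over all kept cells (diamonds) and within 4 bands (circles), with exact conditional 95% intervals. Dashed lines mark 1.5 times; Tspo and Dbi lie above 0 in every band and comparison, whereas the Vdac genes stay between the dashed lines.

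Single cells showed the same separation for Tspo. Per 10000 UMIs, the median kept cell had 11.4 Tspo UMIs in control, 7.27 in young and 17.4 in old cells. Old cells ran from 11.4 at the 10th to 24.8 at the 90th percentile, and young cells from 3.70 to 11.7. Of the old cells, 98.5% (98.2 to 98.7, exact binomial) lay above the young median, and 1.02% (0.79 to 1.29) of the young cells lay above the old median. For Dbi, 79.1% of the old cells lay above the young median and 19.3% of the young above the old median. For Vdac1 and Vdac3 these shares of old cells were 50.9% each, and 53.6% for Vdac2.

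Detection was compared after thinning each cell to 3000 UMIs, since the old cells were deeper. Of the cells so thinned, 96.0% in control, 88.4% in young and 99.2% in old had a Tspo UMI, and 63.9%, 56.2% and 77.0% a Dbi UMI. Without thinning, the shares with a Tspo UMI were 99.7%, 99.0% and 99.98%. Vdac1 was found in 22.0%, 20.8% and 21.5% of thinned cells. For Tspo no kept cell type serves as one that lacks the gene, so free RNA was not separated from the cells' own.

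Cells set aside as other blood types also held both genes. Monocyte-marked cells had 1634 Tspo CPM in control (43 cells), 1541 in young (417 cells) and 1926 in old (68 cells). The young monocyte-marked cells thus had more Tspo than any band of the young neutrophil precursors. Their log2 ratio of old over young was 0.32 (0.24 to 0.41) for Tspo and 0.58 (0.46 to 0.69) for Dbi, intervals that do not overlap those of the kept cells. In dendritic-marked cells the ratio was 1.04 (0.84 to 1.25) for Tspo, from 14 old and 104 young cells, and in macrophage-marked cells 0.95 (0.69 to 1.21), from 10 old and 47 young cells. These groups also held Camp, a neutrophil granule gene found at 37257 CPM in kept old and 57686 in kept young cells. It was at 9894 CPM in old and 10537 in young monocyte-marked cells and at 38304 and 19528 in dendritic-marked cells. In macrophage-marked cells it was at 41438 and 61684 CPM, above the kept cells of the same library. By Camp, the macrophage-marked cells and the old dendritic-marked cells are therefore not set apart from the kept cells, whereas the young dendritic-marked cells had less. Its part in the ratios was not tested. The lowest Tspo levels were in young B-progenitor cells (456 CPM, 111 cells) and erythroid cells (507 CPM, 17 cells).

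Markers of those cell types remained among the kept cells, and the sum of each list was highest in the young library. Most lists were at low levels, but the NK and T markers summed to 635 CPM in control, 752 in young and 429 in old. Nearly all of that was Nkg7, with 634, 743 and 428 CPM. Before cells were set aside the sum was 634, 777 and 428 CPM, so removing marked cells changed it little. Which kept cells held Nkg7 was not tested. The macrophage markers summed to 38.8, 66.7 and 25.3 CPM, mostly Vcam1, against 39.9, 74.2 and 26.5 CPM before. The 7 monocyte markers summed to 13.3 CPM in control, 40.1 in young and 18.0 in old, all 7 with a UMI in each library. Leaving the other blood cells in gave log2 ratios of old over young of 1.15 for Tspo and 0.91 for Dbi.

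Depth per cell also moved with the libraries. In cells of 8000 to 12000 UMIs the log2 ratio of old over young was 1.20 for Tspo and 0.61 for Dbi. With the 4 bands given equal weight in those cells it was 1.09 and 1.10. The value for Dbi at matched depth thus turned on the makeup by bands, and Tspo passed 1.5 times either way.

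Genes around the 6 were taken from 5 lists of 58 genes in all, of which 34 had at least 10 CPM in old or young. Of these, 3 were past 1.5 times higher in old over young and 1 lower, beside 5.04% and 10.2% of all genes. Their median log2 ratio was -0.05, near the -0.08 of all genes. The 4 genes past the limit were Stard5, Stard4, Mtch1 and Cpt1a.

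In cholesterol delivery and cleavage, 5 of 11 genes had at least 10 CPM, 2 of them higher and 0 lower, beside 5.04% and 10.2% of all genes. Stard5, a sterol carrier of the START family, had 14.6 CPM in young and 25.8 in old cells, with 0.83 (0.72 to 0.93) as the log2 ratio. Stard4, a cholesterol carrier of the same family, had 10.8 and 18.1 CPM, a ratio of 0.74 (0.62 to 0.87). Star, which delivers cholesterol to the inner membrane, had 0.10 CPM and Cyp11a1, the side-chain cleavage enzyme, 0.025 CPM in old cells. Fdx1 and Fdxr, which pass electrons to mitochondrial P450 enzymes, had 11.7 and 3.53 CPM in old and 13.2 and 4.70 in young cells. Hsd3b1 was listed at 0 in old and young cells.

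Of the relatives of Dbi and Tspo, 2 of 8 had at least 10 CPM and 0 passed the limit. Acbd6, which binds acyl-CoA, had a log2 ratio of old over young of -0.35 and Eci2, an enoyl-CoA isomerase with an acyl-CoA binding domain, 0.34. Tspo2, the erythroid relative of Tspo, had 0.33 CPM in young cells and was at 0 in old cells, where 0 UMIs allow up to 0.031 CPM. Dbil5 had 0.24 and 0.14 CPM in young and old cells, so that Dbi supplied nearly all transcripts of the pair.

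Of the list of VDAC-binding proteins and their relatives, 6 of 9 had at least 10 CPM and 0 passed the limit, with a median of -0.14. Slc25a5, an adenine nucleotide carrier of the inner membrane, was the most abundant with 580.0 CPM in young and 699 in old cells, a ratio of 0.27. Slc25a3, the phosphate carrier, had 0.0013, and the hexokinases Hk2, which docks on the outer membrane, and Hk3, the form of myeloid cells, had -0.52 and -0.33. Control over young gave -0.44 for Hk2 and -0.35 for Hk3, and old over control -0.08 and 0.018.

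Of the import complexes TOM and SAM, 10 of 12 genes had at least 10 CPM, with 0 past the limit in old over young and a median of -0.02. Mtx2 and Tomm40, the import pore, had 0.24 and 0.10, and Tomm6 and Tomm70a -0.48 and -0.31. In old over control, 2 of the 10 were past 1.5 times lower, Tomm5 among them at -0.76, beside 8.71% of all genes. The median of the 10 was -0.33, against -0.08 over all genes. In control over young it was 0.25, with 9 of the 10 above 0, against -0.009 over all genes. These 2 medians share the control library, on opposite sides of the ratio, so they are not separate results. Of 18 other outer membrane proteins, 11 had at least 10 CPM, with 1 higher and 1 lower in old over young, beside 5.04% and 10.2% of all genes. Mtch1, an outer membrane insertase, had 17.7 CPM in young and 31.4 in old cells, a ratio of 0.83, but 30.5 in control. Cpt1a, which commits acyl groups to oxidation, had 11.7 and 5.74 CPM, a ratio of -1.03, and 7.85 in control.

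Profiles like those of Tspo and Dbi were sought over 12 points, the 4 bands in 3 libraries, among 2688 genes. Each profile was centred on its own mean, so that its level did not count but the shape and size of its changes did. Nearest to Tspo by the root mean square difference of the centred log2 levels were Myd88 (0.17), Rab24 (0.18), Prelid1 (0.20), Unc119 (0.21) and Ldha (0.22). Prelid1 moves phosphatidic acid between the mitochondrial membranes, Myd88 is the adaptor of Toll-like receptors and Ldha makes lactate. Rab24 had log2 ratios of 1.03 in old over young and 0.77 in control over young, and Myd88 0.97 and 0.25. Since the profiles came from the same libraries, ratios near those of Tspo follow from how these genes were picked. Nearest to Dbi were 1810011H11Rik (0.14), Rps21 (0.24), Polr2h (0.25), F10 (0.25) and Gpx3 (0.25). Over the same points, which share libraries and depth, Pearson r was 0.97 for Vdac1 with Vdac2 and 0.88 for Dbi with Vdac1, given as a description.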

How the data were processed

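Bone marrow CD133+ cells went through the 10x Chromium 3′ v2 kit in the authors' hands. Per the labels, reads were aligned with STAR and counted with Cell Ranger 2.1.0 on mm10, and the deposited matrices hold raw UMI counts. Barcodes carry numbered suffixes as after an aggregation, and whether depth was equalised, and whether strand was used, is not given in the sources used here. Of the gene IDs, 27645 of 27998 were found in GENCODE M21.

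Removed were cells under 200 genes, above 20% of mitochondrial UMIs or beyond the 5th and 95th UMI percentiles (within control, and within young and old together). Cells with at least 3 markers and 5 UMIs of 1 of 8 other blood cell types were set aside. No doublet caller was run. Summed UMIs of a library or band were divided by its total and written as CPM, UMIs per 1000000 UMIs. The 95% intervals are exact, of the Poisson kind for levels, the conditional binomial for ratios and the Clopper-Pearson kind for shares. They cover counting error only, and 0 UMIs allow at most 0.055 CPM in the smallest library. Genes were counted past 1.5 times among those with at least 10 CPM in either library. Named genes were the members, the list genes past that limit or else the 2 highest and 2 lowest ratios of a list, and the 5 genes nearest to Tspo and to Dbi, from genes with at least 50 CPM at a point, by log2(CPM+1) profiles centred on their means. Other list genes in the text were chosen after their values were seen. The members and lists were chosen with earlier results of these data known. Alternatives in filters, scaling, bands and limits were run, of which those on depth of 8000 to 12000 UMIs and a late limit of 20 were chosen after seeing the data. The scripts were tested on simulated data. Versions were Python 3.11.15, numpy 2.4.6, scipy 1.17.1 and pandas 2.3.3. Promoters of 2 members were matched, and those of 1 are reported here.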

Additional observations from a re-analysis of the deposited data

Results flagged for a closer look

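Tspo in late over Mpo-high cells went in opposite directions between libraries, with log2 ratios of 0.32 in control, -0.092 in young and 0.19 in old cells. Vdac1 in control over young went in opposite directions between bands, with 0.15 in Mpo-high, 0.14 in Mpo-middle and 0.11 in low-low cells against -0.30 in late cells. Vdac3 did likewise, with 0.13 in Mpo-high and 0.058 in low-low cells against -0.20 in late cells. With 1 library per group, the difference was not tested in any of these cases.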

How the results depend on the processing

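No paired analysis was possible because each group is 1 library and the labels give no replicate numbers. No library could be left out for the same reason. Over 12 alternatives Tspo in old over young stayed between 1.09 and 1.49 on the log2 scale and Dbi between 0.61 and 1.26, both with the direction kept and past 1.5 times. Tspo was 1.15 with other blood cells left in, 1.17 without the 20 most abundant genes in the total, 1.23 with cells thinned to 3000 UMIs, 1.49 in UMIs per cell, 1.30 with the median of all genes at 0, 1.16 with the 4 bands weighted equally and 1.09 with that weighting in cells of 8000 to 12000 UMIs. Dbi was 1.04 without the UMI percentile limit, 0.91 with other blood cells left in, 0.94 without the 20 genes, 1.26 in UMIs per cell, 1.07 with the median at 0, 1.16 with equal bands, 0.61 in cells of 8000 to 12000 UMIs and 1.10 in those with equal bands. UMIs per cell moved the median of all genes in old over young from -0.08 to 0.19, and the depth limit moved it to -0.29.

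The members past the limit in control over young were 0 instead of 1 with other blood cells left in, in UMIs per cell, with equal bands (also in cells of 8000 to 12000 UMIs) or with a limit of 2 times. In old over control they were 1 instead of 2 without the 20 genes or with equal bands (again at either depth), and 0 with a limit of 2 times or in cells of 8000 to 12000 UMIs (Dbi 0.26, Tspo 0.58). In old over young a limit of 2 times left 1, which is Tspo.

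Tspo in late over Mpo-high control cells was 1.20 without the 20 genes, 0.38 with band limits of 20, 100 and 10, 0.23 with 5, 25 and 2, 0.47 with a late limit of 20, and reversed to -0.55 in UMIs per cell. Old cells reversed to -0.23 in UMIs per cell, and young cells to 0.70 without the 20 genes, 0.0050 with limits of 20, 100 and 10, and 0.10 with a late limit of 20. Dbi in control was -1.05 without the 20 genes, -2.04 thinned, -2.80 in UMIs per cell, -2.23 and -1.51 with the other band limits and -2.20 with a late limit of 20.

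Where the main interval did not span 0, other reversals reached values of at most 0.27. In old over control, Vdac1, Vdac2 and Vdac3 became 0.25, 0.25 and 0.27 in UMIs per cell and 0.087, 0.019 and 0.13 with equal bands, and Vdac3 0.018 with the median at 0. Vdac2 in old over young became -0.060 in cells of 8000 to 12000 UMIs. Acbd3 became 0.11 in old over control and 0.047 in old over young in UMIs per cell. Without the 20 genes, late over Mpo-high became 0.097 for Acbd3 in old cells, and 0.092 for Vdac2 and 0.045 for Vdac3 in young cells. Their main values were -0.60, -0.70 and -0.75, so these shifts were large. Signs also changed where the main interval spanned 0. Without the 20 genes, Acbd3 in late over Mpo-high went from -0.33 to 0.55 in control and from -0.34 to 0.45 in young cells. In old over young, the lowest value over the alternatives was -0.39 for Vdac3 and -0.24 for Vdac1. The cause was not tested in any of these cases.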

Other observations

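Without the barcodes found in another library, 9427 control, 6379 young and 9318 old cells remained, and the log2 ratios of old over young were 1.21 for Tspo and 0.98 for Dbi. Xist, of the inactive X chromosome, had 10, 5 and 8 UMIs in the control, young and old libraries, and the Y-linked Ddx3y 19.7, 18.4 and 16.1 CPM. Prom1, the gene of the sorted antigen CD133, had 52.8 CPM in control, 46.9 in young and 45.9 in old cells.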
